A study of Homo sapiens with 6 samples.

Results

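The genes described here encode 10 integrin subunits of the 20812 genes measured: the alpha subunits ITGA1, ITGA2, ITGA3, ITGA5 and ITGAV and the beta subunits ITGB1, ITGB3, ITGB5, ITGB6 and ITGB8. They were chosen by name as subunits that bind collagen, laminin, fibronectin or RGD-containing matrix, or that activate TGFB, and the rule uses no measured value. The set is not complete, and further matrix-binding subunits such as ITGA10 lie outside it. All 10 were matched by gene symbol, ITGB3 was listed at 0 reads in every library, and the other 9 passed the filter on low counts. Expression was measured in 6 libraries of MCF10A, an established, non-tumorigenic human mammary epithelial line, labelled as 2 replicates each of the wt line, of cells stably overexpressing eGFP as the control, and of cells stably overexpressing the KCNJ3 product GIRK1, a potassium channel subunit. The GIRK1 coding sequence was carried by a bicistronic eGFP plasmid, so GIRK1 cells express eGFP as well, and the transfected cells were selected with G418 and sorted by eGFP fluorescence. Neither was done to the wt line. The GEO design text speaks of lines and the methods of replicates, the labels do not say that replicates came from separate cultures, and the p-values therefore measure only the spread between these samples, which may be technical. The study asked how GIRK1 alters benign mammary cells, their contact with extracellular matrix included.

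Integrins are transmembrane receptors made of 1 alpha and 1 beta subunit, which tie the actin cytoskeleton to the matrix. ITGB1 is the common beta partner of ITGA1 and ITGA2 (collagen receptors), of ITGA3 (a laminin receptor) and of ITGA5 (the classical fibronectin receptor). ITGAV pairs with ITGB3, ITGB5, ITGB6 or ITGB8 to bind RGD motifs in vitronectin, fibronectin and the latency peptide of TGFB, and its pairs with ITGB6 and ITGB8 release active TGFB. In mammary epithelium, integrins hold basal cells to the basement membrane.

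The assay (Ion AmpliSeq Transcriptome) amplifies 1 short amplicon per gene from cDNA and counts the reads, which are given here as reads and as RPM, the reads scaled to a common library total. Amplicons differ in how well they amplify and are not scaled to transcript length, so levels are compared between libraries and not between genes. The libraries held 2506120 to 16040556 reads, and the smallest level the depth can show, taken as 3 reads, was 0.187 to 1.20 RPM. KCNJ3 had 2408 and 3677 reads in GIRK1 replicates 1 and 2, 0 reads in both eGFP libraries and in wt replicate 2, and 48 reads in the library labelled wt replicate 1. That library went against its label in its cell type markers too: the 9 basal mammary markers summed to 61.5 RPM, against 7700 to 14658 RPM in the other 5 libraries, whereas the 10 luminal markers summed to 16720 RPM, against 531 to 1025 RPM. TFF1, ESR1 and KRT19 had reads in that library and 0 reads in the other 5. It is therefore shown apart, and the tests used the other 5 libraries. In the names of the deposited data, both GIRK1 libraries carry a tag that the other 4 do not, so if the tag marks a sequencing run, the run cannot be told apart from GIRK1. In bulk RNA, fewer cells expressing a gene and less RNA per cell cannot be told apart either.

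ITGA5 and ITGB6 lay furthest below the eGFP level in GIRK1, ITGB8 lay above it, and ITGA3 and ITGAV were nearest to it. Of the 9 subunits tested, 0 passed an adjusted p-value of 0.05 in GIRK1 against eGFP (edgeR, quasi-likelihood test, p-values adjusted by Benjamini-Hochberg over 11779 genes), where 188 genes or 1.60% of all genes passed. DESeq2 called 1 subunit, ITGA5, and 5.75% of all genes. At an unadjusted p-value under 0.05, ITGA1, ITGA5 and ITGB6 were lower in GIRK1, which is 3 of 9 subunits against 10.7% of all genes lower at this level. The median log2 fold change of the 9 subunits was -0.55, and that of all genes tested was 0.02. The RPM of both GIRK1 libraries lay below those of both eGFP libraries for 6 subunits, as for 24.8% of all genes, and above them for 1 subunit, ITGB8, as for 29.2%. When wt replicate 2 was counted with the controls, GIRK1 lay below all 3 libraries for 4 subunits, ITGA1, ITGA5, ITGB1 and ITGB5 (19.3% of all genes), and above all 3 for 0 subunits (21.6%).

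**Figure D1:**
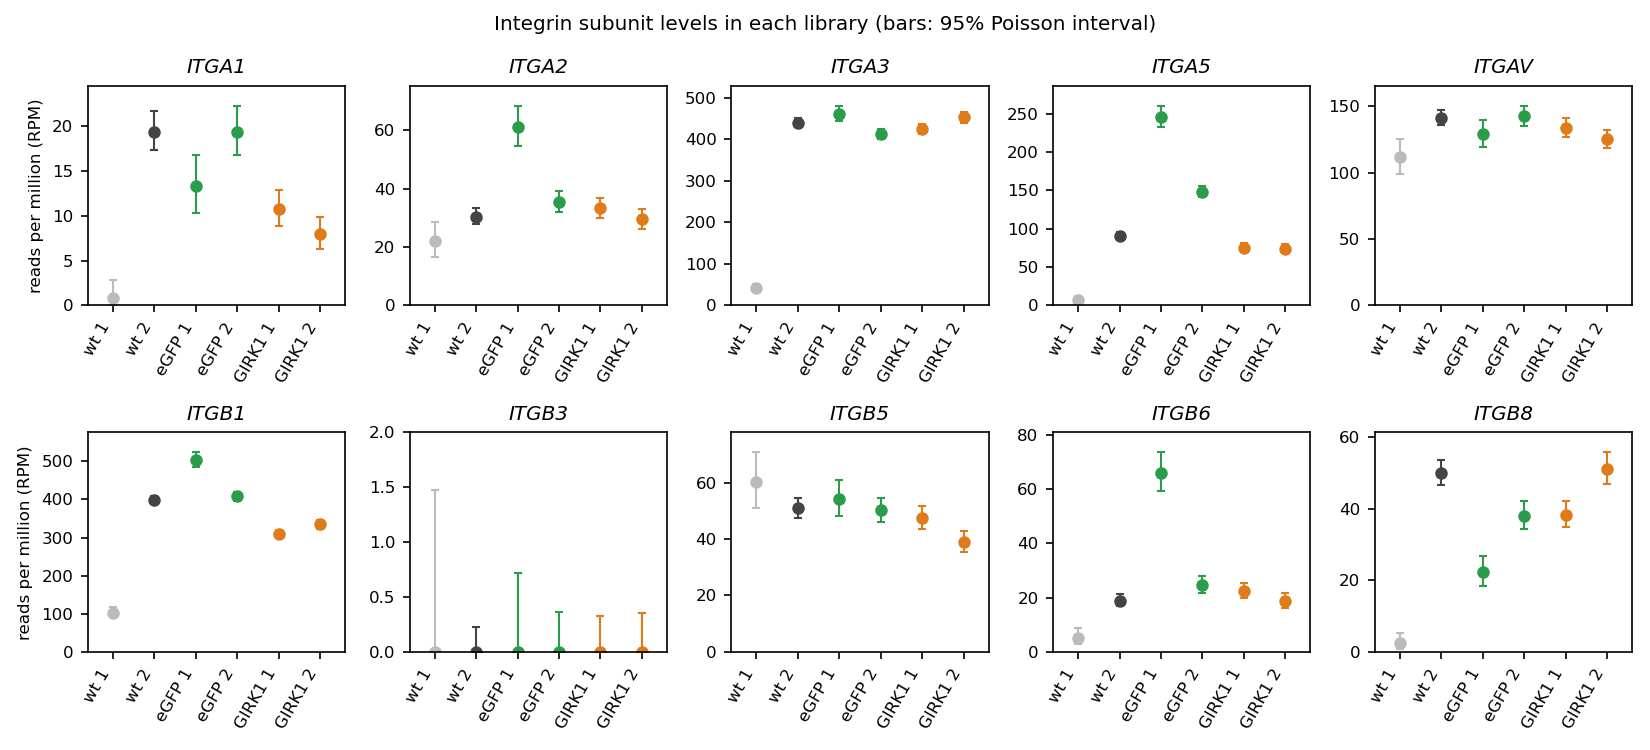
Level of each integrin subunit in RPM (linear axis from 0, scaled per gene) in the 6 libraries, with exact Poisson 95% intervals that cover counting error only. ITGA5 lay in a narrow range of 74.1 to 75.4 RPM in GIRK1 and spread from 148 to 246 RPM in eGFP, and ITGB3 was at 0 throughout.

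The fibronectin receptor subunit ITGA5 had the lowest values in GIRK1 relative to eGFP. Its gene lies on chromosome 12 from 54395261 to 54419460 on the minus strand (GRCh38, GENCODE annotation), and its amplicon covers bases 1905 to 2008 of NM_002205. It had 246 and 148 RPM (1261 and 1516 reads) in eGFP replicates 1 and 2, 75.4 and 74.1 RPM (838 and 767 reads) in GIRK1, and 90.8 RPM (1457 reads) in wt replicate 2. Both GIRK1 libraries were thus below every control, but wt replicate 2 was nearer to them than to either eGFP library. The means were 197 ± 69.2 RPM in eGFP and 74.8 ± 0.930 RPM in GIRK1 (SD, n = 2 each). The log2 fold change against eGFP was -1.45 (SE 0.31, 95% interval -2.18 to -0.73), with an adjusted p of 0.0793 by edgeR, above the threshold. Against wt replicate 2 it was -0.26 (SE 0.36, 95% interval -1.12 to 0.60), and against the 3 controls together it was -1.15 (SE 0.42, adjusted p = 0.220 by edgeR). The eGFP cells themselves were above wt replicate 2 by 1.19 on the log2 scale (SE 0.39, adjusted p = 0.953 by edgeR), which did not pass the threshold. Without eGFP replicate 1 the log2 fold change of ITGA5 against eGFP was -0.97 (adjusted p = 0.00325), and without eGFP replicate 2 it was -1.82 (adjusted p = 3.87e-05), both by edgeR and both past the threshold, as were 8.33% and 25.5% of all genes. It did not pass without GIRK1 replicate 1 (-1.45, adjusted p = 0.175), GIRK1 replicate 2 (-1.45, adjusted p = 0.201) or wt replicate 2 (-1.45, adjusted p = 0.0856), by edgeR. DESeq2 gave an adjusted p of 0.000733. Over 15 alternatives ITGA5 stayed short of the threshold in 10, where the fit without wt replicate 2 was counted under 2 names.

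Among the subunits that pair with ITGAV, ITGB6 and ITGB8 stood on opposite sides of the eGFP level. ITGB6, the epithelial partner that releases TGFB, lies on chromosome 2 from 160099666 to 160200313 on the minus strand (GRCh38). Its amplicon is annotated with a second gene ID, that of the long non-coding RNA LINC02478, so its reads are assigned to ITGB6 with some uncertainty. ITGB6 had 66.1 and 24.8 RPM (339 and 254 reads) in eGFP replicates 1 and 2, 22.4 and 18.8 RPM in GIRK1 (249 and 195 reads) and 19.0 RPM in wt replicate 2 (304 reads). Its high value was that of eGFP replicate 1, whereas the other 4 libraries lay within 18.8 to 24.8 RPM. The log2 fold change of GIRK1 against eGFP was -1.19 (SE 0.47, 95% interval -2.30 to -0.08, adjusted p = 0.238 by edgeR). It was -0.25 without eGFP replicate 1 and -1.78 without eGFP replicate 2. Against wt replicate 2 it was 0.14 (95% interval -1.20 to 1.49). ITGB8, the other TGFB-releasing partner, had 22.2 and 38.1 RPM (114 and 390 reads) in eGFP, 38.4 and 51.2 RPM (426 and 530 reads) in GIRK1 and 50.1 RPM (804 reads) in wt replicate 2. GIRK1 replicate 1 was hardly above eGFP replicate 2, and the GIRK1 libraries bracketed wt replicate 2. The log2 fold change against eGFP was 0.53 (SE 0.30, 95% interval -0.17 to 1.24, adjusted p = 0.369 by edgeR), and against wt replicate 2 it was -0.14 (95% interval -0.98 to 0.70). Against eGFP it was 0.25 without eGFP replicate 1 and 0.91 without eGFP replicate 2.

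The sequences before the RefSeq starts of ITGA5 and ITGB6 are shown because these subunits had the largest differences from eGFP and both had their highest value in eGFP replicate 1. Both hold 250 bases (GRCh38.p14), given 5′ to 3′ on the minus strand on which the genes lie, at chr12:54419267-54419516 for ITGA5 and chr2:160200273-160200522 for ITGB6. The GENCODE genes begin further upstream, so 194 bases of the ITGA5 window and 41 of the ITGB6 window lie within the gene spans given above. Capitals mark the GC box GGGCGG or its reverse complement CCGCCC, which were searched on both strands and do not overlap with another motif.
ITGA5: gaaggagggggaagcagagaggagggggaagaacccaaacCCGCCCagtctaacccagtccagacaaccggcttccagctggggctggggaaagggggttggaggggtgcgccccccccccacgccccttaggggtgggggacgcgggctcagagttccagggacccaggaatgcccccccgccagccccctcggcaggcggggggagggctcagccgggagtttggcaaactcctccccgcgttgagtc
ITGB6: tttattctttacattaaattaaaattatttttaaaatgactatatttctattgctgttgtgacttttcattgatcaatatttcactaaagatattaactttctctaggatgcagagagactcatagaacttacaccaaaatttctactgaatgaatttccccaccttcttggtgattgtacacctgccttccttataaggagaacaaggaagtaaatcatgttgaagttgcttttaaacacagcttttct
The ITGA5 stretch is 70% G and C with 1 GC box, and the ITGB6 stretch is 30% G and C with 0. A promoter was matched for 8 of the 10 subunits, some with several listed starts. A GC box stood in 6 of their 12 windows, those of ITGA2, ITGA5, ITGB1, ITGB5 and ITGB8, and in 42.6% of 35116 windows of that length over all genes. ITGA1 and ITGAV, like ITGB6, held none in their windows. A match of letters is a description and not a binding site.

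ITGAV, the shared alpha chain of the RGD-binding group, had a highest value 1.14 times its lowest over the 5 libraries. It had 129 and 142.8 RPM in eGFP, 134 and 125 RPM in GIRK1 and 141.3 RPM in wt replicate 2, and the groups overlapped. The log2 fold change against eGFP was -0.11, with a 95% interval of -0.58 to 0.36. ITGB5, a vitronectin receptor chain with ITGAV, had 54.2 and 50.1 RPM in eGFP, 47.5 and 39.0 RPM in GIRK1 and 50.9 RPM in wt replicate 2. GIRK1 was lowest here, by a margin within the spread (log2 fold change -0.31, 95% interval -0.84 to 0.22, adjusted p = 0.479 by edgeR). ITGB3, the platelet and vascular partner of ITGAV, had 0 reads in all 6 libraries, under the floor of 3 reads, which is 0.187 RPM in the deepest library and 1.20 RPM in the shallowest.

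The collagen receptor chains had unlike patterns. ITGA1 had 13.3 and 19.3 RPM (68 and 198 reads) in eGFP, 10.7 and 7.93 RPM (119 and 82 reads) in GIRK1 and 19.4 RPM (311 reads) in wt replicate 2. GIRK1 was below every control here, and by like amounts against eGFP and wt replicate 2. The log2 fold change of GIRK1 was -0.85 against eGFP (SE 0.30, adjusted p = 0.197), -1.04 against wt replicate 2 (SE 0.34, adjusted p = 0.554) and -0.92 against the 3 controls (SE 0.26, adjusted p = 0.136), all by edgeR and none past the threshold. By DESeq2 the last of these had an adjusted p of 0.0419. Without eGFP replicate 1, ITGA1 passed in all 3 comparisons of GIRK1, with log2 fold changes of -1.03 to -1.04 and adjusted p-values of 0.0220 to 0.0409 by edgeR, where 8.33%, 4.93% and 8.73% of all genes passed against eGFP, wt replicate 2 and the 3 controls. Without eGFP replicate 2 it passed in none of them, with -0.61 (adjusted p = 0.173), -1.04 (adjusted p = 0.0646) and -0.85 (adjusted p = 0.340), by edgeR. ITGA2 had 61.2 and 35.5 RPM in eGFP, 33.3 and 29.5 RPM in GIRK1 and 30.5 RPM in wt replicate 2. Its GIRK1 values bracketed wt replicate 2, and the log2 fold change was -0.67 against eGFP (95% interval -1.44 to 0.10) and 0.06 against wt replicate 2 (95% interval -0.87 to 0.99). Against eGFP it was -0.16 without eGFP replicate 1 and -1.07 without eGFP replicate 2.

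ITGA3, the laminin receptor chain, varied least over the 5 libraries, with a highest value 1.12 times the lowest. It had 461 and 413 RPM in eGFP, 425 and 453 RPM in GIRK1 and 440 RPM in wt replicate 2, each from at least 2366 reads, and the log2 fold change against eGFP was -0.04 (95% interval -0.55 to 0.47). ITGB1, the beta chain shared by the collagen, laminin and fibronectin receptors, had 503 and 408 RPM in eGFP, 309 and 334 RPM in GIRK1 and 399 RPM in wt replicate 2. Both GIRK1 libraries were below every control, with a log2 fold change of -0.55 against eGFP (SE 0.23, 95% interval -1.10 to 0.00308, adjusted p = 0.267), -0.29 against wt replicate 2 (adjusted p = 0.889) and -0.47 against the 3 controls (adjusted p = 0.276), all by edgeR. Against eGFP it was -0.32 without eGFP replicate 1 and -0.75 without eGFP replicate 2.

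**Figure D2:**
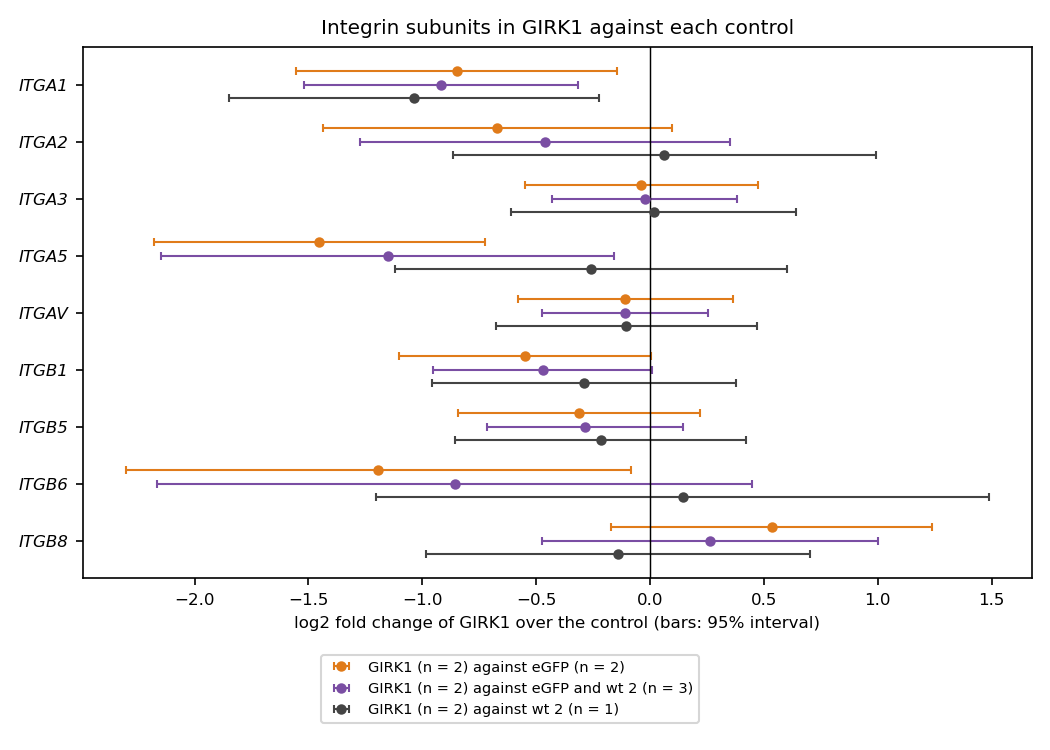
Log2 fold change of the GIRK1 libraries over each control for the 9 integrin subunits tested, with 95% intervals from edgeR's quasi-likelihood fit. The interval of ITGA1 lies below 0 against all 3 sets of controls, whereas ITGA5 and ITGB6 lie at -1.45 and -1.19 against eGFP and at -0.26 and 0.14 against wt replicate 2.

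The eGFP replicates differed from each other more than the GIRK1 replicates did for 8 subunits, and less for ITGB5 (1.08 against 1.22 as the ratio of the higher to the lower RPM). This ratio in the eGFP pair was 2.66 for ITGB6, 1.73 for ITGA2, 1.71 for ITGB8 and 1.66 for ITGA5, whereas no subunit exceeded 1.35 in the GIRK1 pair. eGFP replicate 1 was the highest of the 5 libraries for 6 subunits (ITGA2, ITGA3, ITGA5, ITGB1, ITGB5 and ITGB6), as for 26.0% of all genes, and the lowest for ITGB8. It was the shallowest of the 5 with 5126930 reads, and its basal markers summed to 14658 RPM against 7700 to 10220 RPM in the other 4. KRT5 carried most of that sum, with 10660 RPM against 3862 to 5741 RPM. Of the 8 basal markers with reads in these libraries, 3 (KRT5, KRT6A and KRT14) were highest and 4 (KRT17, DSG3, CDH3 and EGFR) were lowest in eGFP replicate 1. The part of depth and of the basal markers in these values was not tested. Between eGFP and wt replicate 2, 0 of 9 subunits and 0 of 11779 genes passed the adjusted threshold in edgeR. At an unadjusted p-value under 0.05, 1 subunit (ITGA5) and 418 genes or 3.55% passed, and DESeq2 called 0 subunits and 5 genes or 0.0424%. Against wt replicate 2, GIRK1 had 0 of 9 subunits past the adjusted threshold, where 0.229% of genes passed, with ITGA1 the only one lower at the unadjusted level (3.62% of genes) and 0 called by DESeq2, which called 1.07% of genes. Against the 3 controls, 0 of 9 passed, where 1.21% of genes did, with ITGA1 and ITGA5 lower at the unadjusted level (10.2% of genes) and ITGA1 called by DESeq2, which called 7.01% of genes. By the rule of the study's methods (a 2-fold or larger ratio of the mean RPM, with an SD under 0.7 times the mean in each group, and no test), ITGA5 and ITGB6 were lower in GIRK1 than in eGFP, and 0 subunits were higher. Of all 20812 genes measured, those without reads included, 3.28% were lower and 3.01% higher by this rule. The other shares of all genes are of the genes tested. Genes with 0 reads in both libraries of a group, KCNJ3 among them, were not called here, a condition that the methods do not state.

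**Figure D3:**
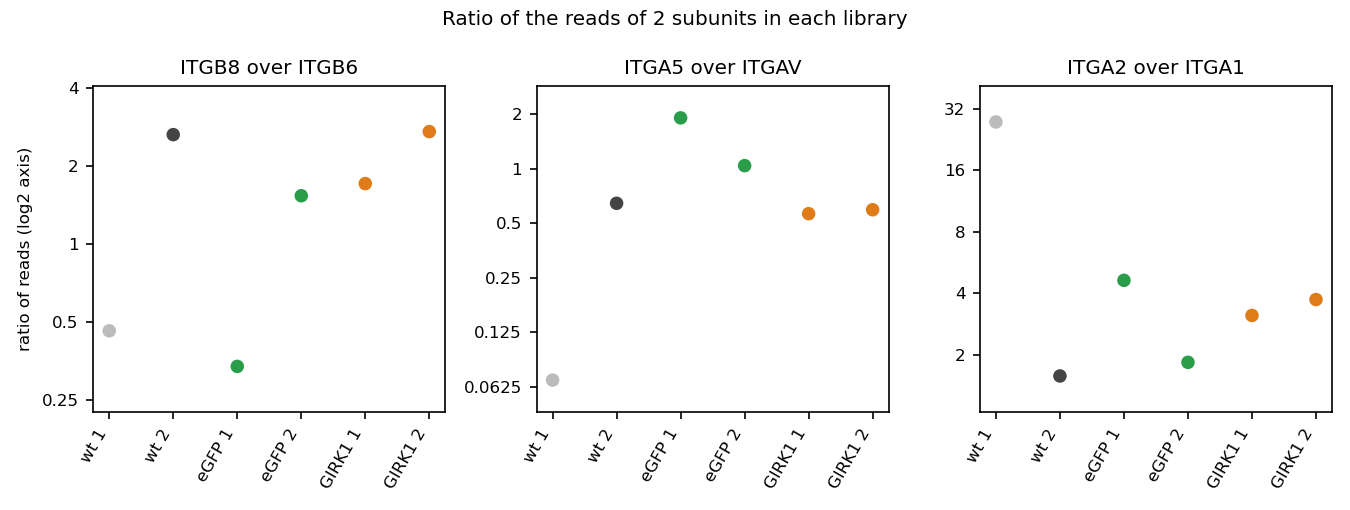
Ratio of the reads of 2 subunits within each library (log2 axis), which does not depend on library size. The ITGB8 over ITGB6 ratio was 0.336 in eGFP replicate 1 and 1.54 to 2.72 in the other 4 libraries tested, and the ITGA5 over ITGAV ratio was 1.04 or more in eGFP and 0.643 or less in the other 4 libraries.

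Ratios within a library do not depend on its size, and only their change between libraries is read here. The ratio of ITGB8 to ITGB6, the chains that release TGFB with ITGAV, was 0.336 and 1.54 in eGFP, 1.71 and 2.72 in GIRK1 and 2.64 in wt replicate 2. Of these 5 libraries, eGFP replicate 1 had the lowest ratio. The ratio of ITGA5 to ITGAV was 1.90 and 1.04 in eGFP, 0.563 and 0.592 in GIRK1 and 0.643 in wt replicate 2, so that GIRK1 and wt replicate 2 lay together below eGFP. The ratio of ITGA2 to ITGA1 was 4.62 and 1.83 in eGFP, 3.11 and 3.72 in GIRK1 and 1.57 in wt replicate 2, and the groups overlapped.

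The library labelled wt replicate 1 had the lowest RPM of the 6 libraries for 8 of the 9 subunits with reads, as for 34.4% of all genes, and the highest for ITGB5. ITGA1 had 2 reads (0.798 RPM), and wt replicate 2 was 24.3-fold above it (exact 95% counting interval 6.67 to 201). ITGB8 had 6 reads (2.39 RPM), and wt replicate 2 was 20.9-fold above it (9.58 to 57.2). The chains of the fibronectin and laminin receptors were low as well, with ITGA5 at 7.58 RPM and ITGA3 at 41.9 RPM, which wt replicate 2 exceeded 12.0-fold and 10.5-fold. ITGB1 at 103 RPM and ITGB6 at 5.19 RPM were exceeded 3.86-fold and 3.65-fold. ITGAV at 112 RPM, ITGA2 at 21.9 RPM and ITGB5 at 60.3 RPM lay within 1.39-fold of wt replicate 2. The 9 basal markers, among them KRT14 and KRT17 at 0 reads, were low in the same library. Reads copied by PCR are not independent, so the intervals and floors cover only the error of counting, and 1 library has no replicate check.

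Other genes of the integrin and TGFB pathways were read in the same fit. Of 16 other integrin subunits, 5 were tested, and 2 fell and 0 rose in GIRK1 against eGFP, where 0.840% of all genes fell and 0.756% rose. All 5 had a negative log2 fold change, with a median of -1.47, against -0.55 for the 9 subunits described above. At an unadjusted p-value under 0.05, 3 of the 5 were lower, as were 10.7% of all genes. DESeq2 called 3 of them lower, as it did 3.82% of all genes. ITGB2, the beta chain of leukocyte integrins, had 80 and 46 reads (15.6 and 4.50 RPM) in eGFP, 98 reads (6.11 RPM) in wt replicate 2, and 2 reads in each GIRK1 library. It was higher in eGFP by a ratio of summed reads, scaled to the library totals, of 44.0 (exact 95% counting interval 16.8 to 164), with an adjusted p of 0.0359 by edgeR. ITGA10, a further collagen-binding chain, fell from 28.3 and 37.8 RPM in eGFP to 9.63 and 9.18 RPM in GIRK1, with 20.2 RPM in wt replicate 2 (log2 fold change -1.85, SE 0.25, adjusted p = 0.0233 by edgeR). Against the 3 controls, ITGB2 passed (adjusted p = 0.0425) and ITGA10 did not (adjusted p = 0.0649), both by edgeR.

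Of 22 matrix ligands of integrins, 14 were tested, and 2 fell and 0 rose in GIRK1 against eGFP. Their median log2 fold change was -0.89. LAMB3 encodes a chain of laminin-332, a ligand of ITGA3 with ITGB1, and is also among the basal markers. LAMB3 fell from 1747 and 1790 RPM in eGFP to 258 and 260 RPM in GIRK1, with 768 RPM in wt replicate 2 (log2 fold change -2.81, SE 0.21, adjusted p = 0.00301 by edgeR). The receptor chain ITGA3 had a log2 fold change of -0.04 in the same comparison. THBS1, a matrix protein that binds integrins and activates latent TGFB, fell from 426 and 320 RPM to 68.6 and 87.0 RPM, with 157 RPM in wt replicate 2 (log2 fold change -2.31, SE 0.28, adjusted p = 0.0150 by edgeR). Against the 3 controls, where 0.413% of all genes fell, only LAMB3 of the 14 ligands passed (adjusted p = 0.0442 by edgeR). Against wt replicate 2 edgeR called 0 ligands, with 3 lower at the unadjusted level, as were 3.62% of all genes. DESeq2 called 2 ligands lower there, and 0.382% of all genes.

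The intracellular side and the TGFB side gave fewer calls. Of 32 components of the integrin adhesion complex, 29 were tested and 0 passed the adjusted threshold in edgeR. At an unadjusted p-value under 0.05, 10 were lower and 0 higher. Of all 11779 genes, 1260 (10.7%) were lower and 958 higher at this level. DESeq2 called 3 components lower, as it did 3.82% of all genes, and the median log2 fold change of the list was -0.42. The largest differences in this list, among genes averaging 10 reads or more, were TGFB1I1 (the focal adhesion adaptor HIC-5) at -1.52 (adjusted p = 0.118) and ACTN1 (alpha-actinin, which crosslinks actin) at -1.27 (adjusted p = 0.125), both by edgeR. Against wt replicate 2, TGFB1I1 was at -0.45 and ACTN1 at -0.47. Of 9 TGFB ligands and proteins of the latent complex, 6 were tested and 0 passed in edgeR. At the unadjusted level 2 were lower and 2 higher, and DESeq2 called 1 lower, beside the same shares of all genes. The median of this list was -0.58. TGFB2, a ligand, differed by -2.44 on the log2 scale (adjusted p = 0.104) and LTBP2, a latent TGFB binding protein, by -1.46 (adjusted p = 0.119), both by edgeR. Against wt replicate 2, TGFB2 was at -2.55 and LTBP2 at -0.0018. LTBP2 had 16.8 and 10.3 RPM in eGFP, 5.13 and 4.93 RPM in GIRK1 and 5.11 RPM in wt replicate 2. Of 18 TGFB response genes, 15 were tested, and 1 fell and 0 rose. The list gives no direction of response to TGFB for its genes. ID1, a transcriptional inhibitor, went from 161 and 126 RPM in eGFP to 50.8 and 55.7 RPM in GIRK1, with 73.1 RPM in wt replicate 2 (log2 fold change -1.47, SE 0.24, adjusted p = 0.0425 by edgeR). Against the 3 controls together ID1 was at -1.20 and short of the threshold (adjusted p = 0.151 by edgeR). Against wt replicate 2 its log2 fold change was -0.44. The median of this list was -0.51. These counts moved with the tool and with the eGFP library used. DESeq2 called 6 matrix ligands and 4 TGFB response genes lower, as it did 3.82% of all genes. In edgeR, without eGFP replicate 1, 4 adhesion complex components, 5 matrix ligands and 4 TGFB response genes were lower, and without eGFP replicate 2, 13, 6 and 8 were, while 4.65% and 13.8% of all genes were. In these 3 lists 1 gene was higher in each case, a TGFB response gene without eGFP replicate 1 and an adhesion complex component without eGFP replicate 2.

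**Figure D4:**
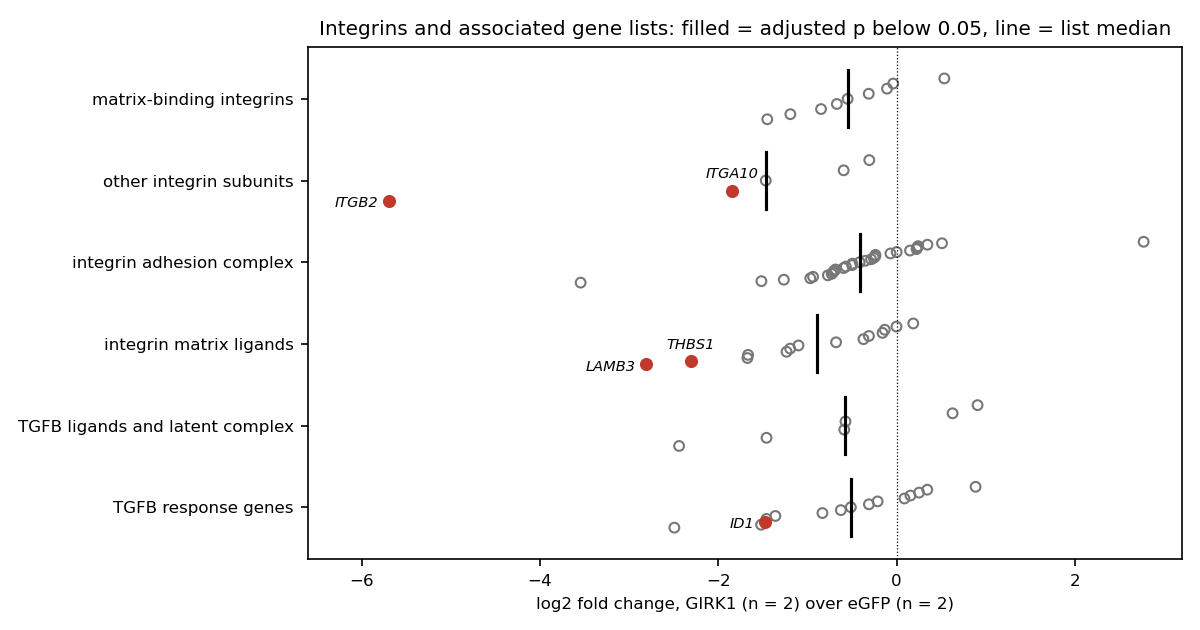
Log2 fold change of GIRK1 over eGFP for each tested gene of the 9 matrix-binding integrins and 5 associated lists. Filled points are genes with an adjusted p below 0.05 (edgeR), vertical lines are list medians, and the vertical offset within a list only separates points. The median of the 9 integrins lies at -0.55 and that of the matrix ligands at -0.89, and the point of ITGB2 rests on 2 reads in each GIRK1 library.

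The genes whose pattern over the 5 libraries was most like ITGA5, by Euclidean distance between centred log2(RPM + 1) values over 9279 genes, were HIST1H1D (0.162), HIST1H4H (0.208) and LTBP2 (0.218), where the median distance was 1.63. Those most like ITGB6 were HSP90AA1 (0.119), CD9 (0.156) and HIST1H2BH (0.178), where the median was 1.64. They were chosen for likeness over these same libraries, so sharing the library of the highest value is no separate observation. Each of these 6 genes, like ITGA5 and ITGB6, had its highest value in eGFP replicate 1, as did 26.0% of all genes. For HSP90AA1, a chaperone, this was 396 RPM against 121 to 161 RPM in the other 4 libraries. For CD9, a tetraspanin that associates with integrins, it was 263 RPM against 79.2 to 98.3 RPM.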

How the data were processed

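The authors sequenced on an Ion S5 XL, mapped amplicons to the AmpliSeq transcriptome reference in the Ion Torrent workflow, and deposited whole read counts of 20812 amplicons, their covering reads and the RPM, which is the count scaled to the library total. RPM values were used as deposited for levels, and counts for tests. The members and the gene lists were chosen with earlier results of these data known, and no list is independent support. Counts of 5 libraries (the library labelled wt replicate 1 left out) were fitted with edgeR 4.0.16 in R 4.3.3 (TMM normalization, filterByExpr, quasi-likelihood test, Benjamini-Hochberg adjustment, threshold 0.05), with GIRK1, eGFP and wt replicate 2 as 3 groups (11779 genes), and again with GIRK1 against the 3 controls together (11389 genes). A single wt library is assumed to vary like the other groups. Standard errors were derived from the F value. DESeq2 1.42.0 was an alternative, and the procedure was tested on simulated counts, where the fit of GIRK1 against eGFP missed changes of 2-fold. A subunit short of the threshold is therefore not shown to be unchanged. All members were named, and of each list the genes called (at most 4) or, with none called, the 2 largest differences at a mean of at least 10 reads. ITGA6 was named in addition. One gene of the matrix ligand list is not reported here. Genes of like pattern had a mean of at least 50 reads. Gene positions come from GENCODE on GRCh38, matched by symbol, and upstream sequences from RefSeq. The alternatives were other normalizations, filters, the DESeq2 test, covering reads, all 6 libraries, the replicate number as a block and leaving out each replicate. Depth was 2506120 to 16040556 reads per library.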

Additional observations from a re-analysis of the deposited data

Results flagged for a closer look

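The library labelled wt replicate 1 gave both results that lie outside the comparisons of the report and above the level in the controls. KCNJ3 had 19.2 RPM (48 reads, exact Poisson 95% interval 14.1 to 25.4 RPM) in that library, and 0 reads in wt replicate 2 and in both eGFP libraries. The 10 luminal marker genes summed to 16720 RPM in it, against 531 to 1025 RPM in the other 5 libraries. In the same library 8 of 9 integrin subunits had their lowest RPM.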

How the results depend on the processing

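With 2 libraries a group, the calls depended on the settings and on which eGFP library was used. Genes called in GIRK1 against eGFP (188 as reported) were 865 without a filter, 107 with at least 10 reads in every library, 677 by DESeq2, 0 with all 6 libraries, 549 with the replicate block and 158 to 2997 when a replicate was left out. The integrin subunits called (0) were 1, ITGA5, without a filter, by DESeq2 and with the replicate block. Their number also moved when an eGFP replicate was left out, which leaves 1 eGFP library and takes the spread from the GIRK1 pair alone. Without eGFP replicate 2 the largest log2 fold changes against eGFP were those of ITGA2 (-1.07), ITGA5 (-1.82), ITGB1 (-0.75), ITGB6 (-1.78) and ITGB8 (0.91). Against wt replicate 2, the genes called (27) were 133 without a filter, 16 with at least 10 reads, 126 by DESeq2 and 34 to 576 with a replicate left out, and the subunits 0 to 1. Between eGFP and wt replicate 2, the genes (0) were 6 without a filter, 5 by DESeq2 and 5 to 1268 with a replicate left out, and the subunits 0 to 4. Against the 3 controls, the genes were 374 without a filter, 798 by DESeq2, 7 with all 6 libraries, 558 with the replicate block and 19 to 984 with a replicate left out, and the subunits 1 by DESeq2 (ITGA1) and 0 to 1. Without its condition on the coefficient of variation the study's rule called 2501 genes, and the same 2 subunits. The causes were not tested.

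Under the replicate block, ITGA5 in GIRK1 against eGFP was -1.39 (adjusted p = 0.0262 by edgeR). The labels do not say whether eGFP and GIRK1 libraries of the same replicate number share more than that number. The correlation of replicate differences was 0.127 across genes, and with only 2 such pairs it cannot settle this.

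Of the single-subunit values under the alternatives, 421 kept direction and side, 17 came past the threshold and 21 changed sign. Against eGFP, the fit without wt replicate 2 was counted here under 2 names. ITGA3 changed sign with total reads only (0.0054 against eGFP, -0.0047 against wt replicate 2, -0.010 for eGFP against wt replicate 2, 0.0020 against the 3 controls), and against the 3 controls with the upper quartile (0.0083), covering reads (0.0078, added after seeing the data) and all 6 libraries (0.36). ITGAV in eGFP against wt replicate 2 changed sign with total reads (-0.056), the upper quartile (-0.012), no filter (-0.016) and at least 10 reads (-0.0071). Leaving out a replicate gave ranges across 0 for ITGA3 (-0.18 to 0.11 against eGFP, -0.048 to 0.079 against wt replicate 2, -0.092 to 0.19 between controls, -0.084 to 0.056 against the 3 controls), for ITGA2 (-0.0094 to 0.13) and ITGB8 (-0.38 to 0.070) against wt replicate 2, and for ITGB5 (-0.023 to 0.21) and ITGAV (-0.0100 to 0.014) between controls. A fit to end-to-end reads was not run. Depth limits ITGA1, at 68 to 311 reads in the 5 libraries, more than ITGA3, at 2366 to 7064.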
